A study of Mus musculus with 6 samples.

Results

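The genes for 9 chaperones and folding enzymes of the endoplasmic reticulum (ER), Hspa5, Hsp90b1, Pdia4, Pdia6, Calr, Dnajb9, Sdf2l1, Creld2 and Hyou1, together with Xbp1, the transcription factor that drives many of them, were followed in immortalised mouse embryo fibroblasts (iMEF) after treatment with a compound that degrades their ASH2L. ASH2L belongs to the core that every KMT2 enzyme needs to methylate lysine 4 of histone H3. The 10 genes were picked by symbol from a table of 55401 genes, and all 10 were among the 16773 genes with an adjusted p-value. RNA of cells treated with dTAG-13 for 24 h (3 libraries per the labels) was compared with RNA of cells without dTAG-13 (3 libraries per the labels). Cells of both groups carried floxed Ash2l alleles whose exon 4 had been deleted through an inducible Cre-ER, and both lived on a lentiviral human ASH2L with an FKBP12(F36V) tag and HA tags. The study's legend for this comparison names a single clone, NG3, and gives fewer replicates than the labels. dTAG-13 is a PROTAC, a compound that ties the tag to the Cereblon ubiquitin ligase so that the fusion protein is degraded. No dTAG-13-treated cells without the tag were among these libraries, so effects of the compound and of ASH2L loss cannot be told apart. The table holds 1 mean normalised read count per gene over both groups, scaled to ERCC spike-in RNA, with 1 log2 fold change, its standard error and its p-values. It has no value per library, so the spread between libraries enters here only through the standard error.

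Proteins bound for the cell surface or the medium fold in the ER, and fibroblasts, which secrete large amounts of collagen, depend on this machinery. When unfolded proteins accumulate, the sensors IRE1, PERK and ATF6 start the unfolded protein response (UPR). IRE1 splices the Xbp1 mRNA so that it codes for an active transcription factor, ATF6 is cut in the Golgi to release its own, and both raise the transcription of ER chaperone genes. PERK acts on translation and raises ATF4, which controls a largely different set of genes, among them those for amino acid supply.

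Many ER chaperone genes share a promoter sequence, the ER stress response element (ERSE), a CCAAT box and a CCACG box with 9 bases between them, known to be bound by NF-Y and ATF6 together. In promoters of 300 bases (250 before the start and 50 after it) from RefSeq on GRCm38.p6, which held 9 of the 10 genes but not Hyou1, an exact ERSE on either strand stood before Hspa5, Hsp90b1, Pdia6, Calr and Creld2. Of all 32851 promoters, 39 (0.119%) held one, against 5 of these 9. The element is known from ER chaperone genes, the kind chosen here, so its share among these 9 promoters is not an independent result. The 6 matches are shown with the 2 boxes in capitals and each read from its CCAAT box.
Hspa5: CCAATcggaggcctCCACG
Hsp90b1, far element: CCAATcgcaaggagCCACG
Hsp90b1, near element: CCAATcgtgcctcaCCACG
Pdia6: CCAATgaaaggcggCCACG
Calr: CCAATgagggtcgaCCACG
Creld2: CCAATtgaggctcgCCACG
The element of Hspa5 lay 65 bases before the start (chr2:34772025-34772043) and that of Pdia6 98 bases before it (chr12:17266491-17266509), both on the strand of the gene. Hsp90b1 had one 212 bases before its start on the strand of the gene (chr10:86705638-86705656) and another 107 bases before it on the opposite strand (chr10:86705533-86705551). The elements of Calr (chr8:84847075-84847093, 162 bases) and Creld2 (chr15:88819520-88819538, 126 bases) lay on the opposite strand. Distances are from the first base of each match to the RefSeq start. GENCODE, used for the gene spans below, starts Hspa5 at chr2:34771970, so by that annotation its element lies inside the gene. The window of Dnajb9 likewise lies inside its GENCODE span, and bases before that other start were not searched. The 9 bases between the boxes differed among all 6 matches.

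The promoter of Hspa5, the gene with the clearest change, is shown whole (chr2:34771840-34772139, plus strand), with the ERSE in capitals.
Hspa5: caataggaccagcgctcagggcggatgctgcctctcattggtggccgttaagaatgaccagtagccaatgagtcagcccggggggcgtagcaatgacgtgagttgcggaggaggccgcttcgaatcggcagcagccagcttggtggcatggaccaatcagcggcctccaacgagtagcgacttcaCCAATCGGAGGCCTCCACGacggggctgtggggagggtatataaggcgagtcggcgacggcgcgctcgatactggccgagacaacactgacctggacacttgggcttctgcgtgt
That of Creld2, the gene with the highest fold change of the 10, is shown for comparison (chr15:88819396-88819695, plus strand), with the ERSE in capitals as read on the opposite strand.
Creld2: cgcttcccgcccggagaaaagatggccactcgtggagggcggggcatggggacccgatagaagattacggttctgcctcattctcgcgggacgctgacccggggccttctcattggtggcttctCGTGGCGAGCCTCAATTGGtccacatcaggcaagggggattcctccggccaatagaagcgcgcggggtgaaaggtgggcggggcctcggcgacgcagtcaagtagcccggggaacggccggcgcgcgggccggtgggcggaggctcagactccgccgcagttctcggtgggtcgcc
When 1 change was allowed in the CCACG box, which includes the exact matches, Pdia4 joined them and 6 of 9 promoters held the element, against 0.998% of all promoters. A CCAAT box of any kind, which every ERSE contains, was found in 8 of the 9 promoters (all but that of Xbp1) and in 37.4% of all promoters. The related letters ATTGGNCCACG (ERSE-II, 0.0365% of all promoters), TGACGTGG (a site of XBP1 and ATF6, 0.676%) and TGACGTCA (the cyclic AMP response element, 1.79%) were in none of the 9 windows, on either strand, which says only that these letters do not occur there. GC content of the 9 promoters ran from 51.0% for Xbp1 to 70.0% for Pdia6, against a median of 52.7% for all promoters. Their CpG counts ran from 10 to 38, against a median of 7.

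**Figure D1:**
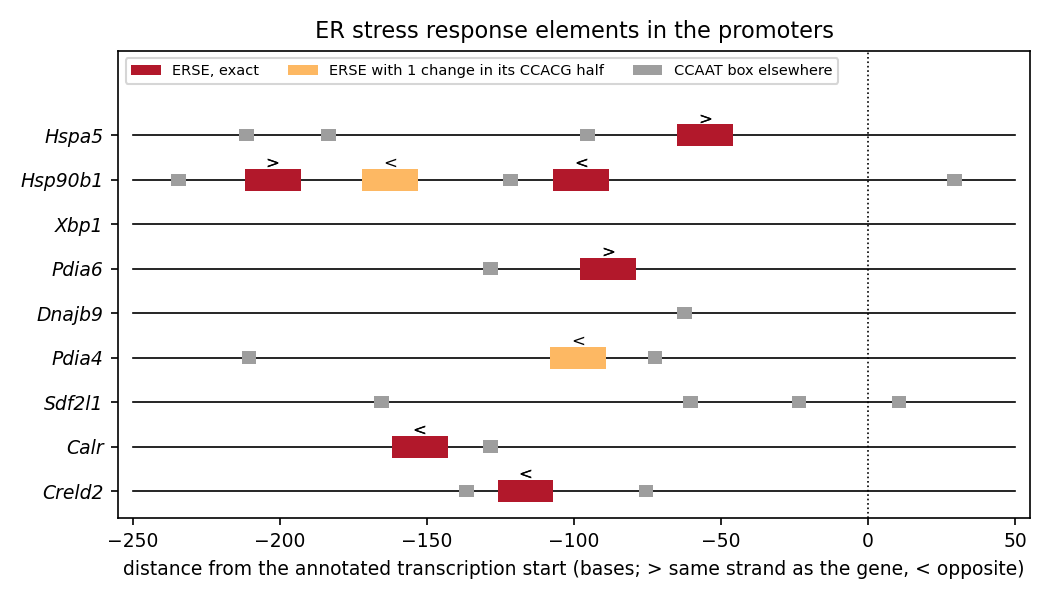
Positions of the ERSE and of CCAAT boxes in the promoters of 9 genes. The horizontal axis is the distance in bases from the RefSeq transcription start (dotted line), each gene is 1 row, red bars are exact ERSE matches, orange bars are matches with 1 change in the CCACG box, and grey bars are CCAAT boxes elsewhere. Exact elements lie between 65 and 212 bases before the start in 5 genes, and Hsp90b1 has 2 of them.

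Hspa5 was the only one of the 10 genes whose level passed the threshold of an adjusted p under 0.05 on the deposited scale. It encodes BiP, the HSP70 of the ER, which binds unfolded chains, holds the UPR sensors inactive and is a standard readout of ER stress. Its log2 fold change, dTAG-13 over untreated, was −0.69 ± 0.15 (SE; 95% interval −0.98 to −0.39), a level 1.61 times lower in dTAG-13 cells (adjusted p = 2.7e-05 by DESeq2, as deposited by the authors). None of the 10 rose past the threshold, and 9 did not pass it in either direction. Over all tested genes 19.9% passed, 12.5% as lower and 7.45% as higher. The share of these genes that was lower, 10%, was thus near that of all genes, and the change of Hspa5 is a result on 1 gene and not on the group. Since this is RNA of whole cultures, fewer cells with the RNA and less RNA per cell cannot be told apart.

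The median log2 fold change of the 10 genes was −0.05, close to −0.02 for all tested genes, with 5 genes below 0 and 5 above it. Without Hspa5 the other 9 had a median of 0.00364 and ran from −0.27 for Hsp90b1 to 0.38 for Creld2. At the mean counts of these genes, 156 to 14146, standard errors were 0.15 to 0.23, below the median of 0.26 over all tested genes. The 95% intervals, built from the deposited fold changes after shrinkage, held 0 for 8 genes. Those of 5 lay within 0.5 of 0 and all 10 lay within 1 of 0. That of Hspa5 came nearest to a halving, with its lower limit at −0.98. Intervals without shrinkage were not available, so whether they reach a doubling or halving was not tested. Within 0.3 of 0 were 8 of the 10 values, against 57.3% of the 8236 tested genes with a mean count of at least 100.

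**Figure D2:**
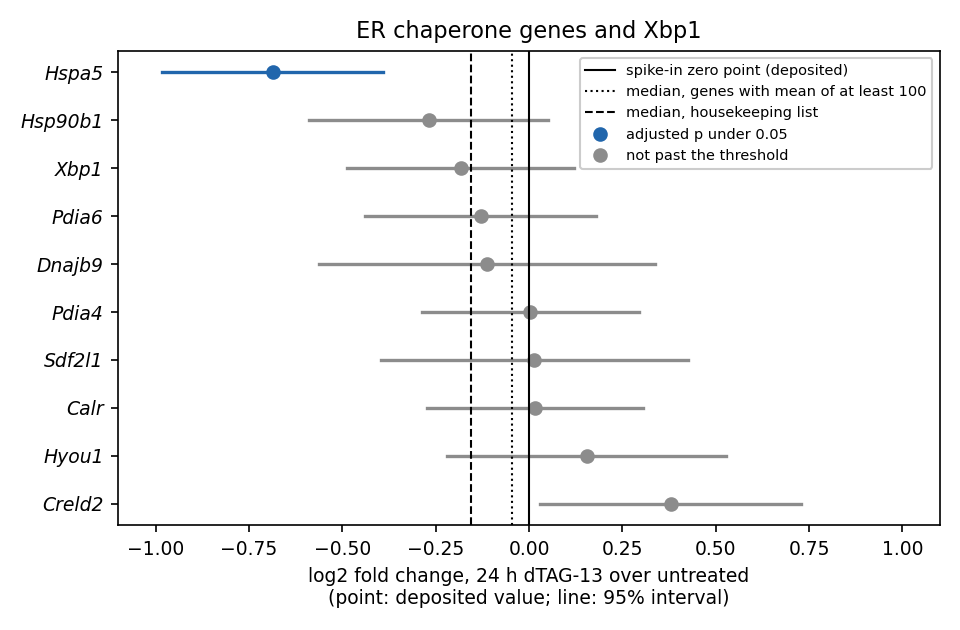
Log2 fold change (24 h dTAG-13 over untreated) of the 10 genes, with 95% intervals from the deposited standard errors. The vertical lines mark 0 on the deposited spike-in scale, the median of tested genes with a mean count of at least 100 (−0.05) and the median of the housekeeping list (−0.16). Hspa5 (blue, adjusted p under 0.05) is at −0.69 and its interval lies left of all 3 lines, while Creld2 at 0.38 lies right of them without passing on the deposited scale.

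The other large chaperones of the ER lumen did not pass the threshold. Hsp90b1 encodes GRP94, the HSP90 of the ER, which completes the folding of integrins and of insulin-like growth factors. It was the next lowest of the group, at −0.27 ± 0.16 (95% interval −0.59 to 0.05; adjusted p = 0.227). Calr encodes calreticulin, a calcium-binding lectin that holds newly glycosylated chains, and it was at 0.02 ± 0.15 (−0.27 to 0.31; adjusted p = 0.962). Hyou1 encodes GRP170, a large HSP70 relative that exchanges the nucleotide of BiP, and it was at 0.15 ± 0.19 (−0.22 to 0.53; adjusted p = 0.616). The interval of Hspa5 overlapped that of Hsp90b1 but not those of Calr and Hyou1; differences between genes were not tested.

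The partners that work directly on BiP had values near 0. Dnajb9 encodes ERdj4, a J protein that brings BiP to its clients and to IRE1 and is a strong target of XBP1. Its value was −0.11 ± 0.23 (−0.56 to 0.34; adjusted p = 0.77), at a mean count of 181. Sdf2l1, part of a complex with the J protein ERdj3 that keeps clients from aggregating, was at 0.01 ± 0.21 (−0.40 to 0.43; adjusted p = 0.975) at a mean count of 156. These are the least counted genes of the group and have its widest intervals.

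Among the thiol enzymes, Creld2, a secreted and ER-resident protein with disulfide isomerase activity that is strongly raised by ER stress, was the highest of the 10, at 0.38 ± 0.18 (95% interval 0.03 to 0.73). Its unadjusted p was 0.0195 and its adjusted p 0.083, so it did not pass; it and Hspa5 were the 2 genes with an unadjusted p under 0.05, and their values had opposite signs. Pdia6, a disulfide isomerase that also restrains IRE1 and PERK signalling, was at −0.13 ± 0.16 (−0.44 to 0.18; adjusted p = 0.625). Pdia4, encoding ERp72, was at 0.00364 ± 0.15 (−0.29 to 0.29; adjusted p = 0.992), the value closest to 0 of all 10. The intervals of Creld2 and Pdia4 did not overlap that of Hspa5, the lowest of the 10, and that of Pdia6 did. How often intervals of other genes overlap that of Hspa5 was not counted.

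Xbp1 itself was at −0.18 ± 0.16 (−0.49 to 0.12; adjusted p = 0.436), with a mean count of 824. A gene count adds the spliced and unspliced forms of this mRNA, so it gives no measure of how much of it IRE1 had spliced. Known targets of it here, Dnajb9, Sdf2l1 and Pdia6, lay on both sides of 0, from −0.13 to 0.01, and the interval of each held 0.

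The zero point of these fold changes rests on the spike-ins. The 16 housekeeping genes, with mean counts from 40.6 for Pgk1 to 32662 for Eef2, had a median of −0.16. They were not shown to be stable: Ppia was itself called lower (−0.81, adjusted p = 0.000328 by DESeq2), and 5 had an unadjusted p under 0.05. With their median as zero, 43.3% of all genes that passed were lower, against 62.6% on the deposited scale. On this scale Hspa5 was still lower (−0.53, adjusted p = 0.00166) and Creld2 passed as higher (0.53, adjusted p = 0.00964), while Pdia6 and Dnajb9 changed sign, to 0.026 and 0.042, without passing. With the median of genes of at least 100 mean counts as zero, Hspa5 was at −0.64 (adjusted p = 0.000106) and Creld2 at 0.43 (adjusted p = 0.048). The call on Hspa5 therefore did not depend on the zero point and that on Creld2 did.

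As levels, mean counts per kilobase of exon over both groups ran from 3862 for Calr and 3345 for Hspa5 through 2146 for Hsp90b1, 1284 for Pdia6 and 740 for Pdia4 to 339 for Creld2 and 254 for Xbp1. Sdf2l1 with 141, Dnajb9 with 71.1 and Hyou1 with 41.5 per kilobase came last. On this scale Calr and Hspa5 both stood at percentile 99.3 of all tested genes, and Hyou1 at percentile 60.0. Neither the spread of these levels nor the order of neighbours could be tested, and if the libraries were made from the 3′ ends of mRNA, as the methods state, division by length favours short transcripts such as Sdf2l1 (1108 exon bases) over long ones such as Hyou1 (7230 exon bases).

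**Figure D3:**
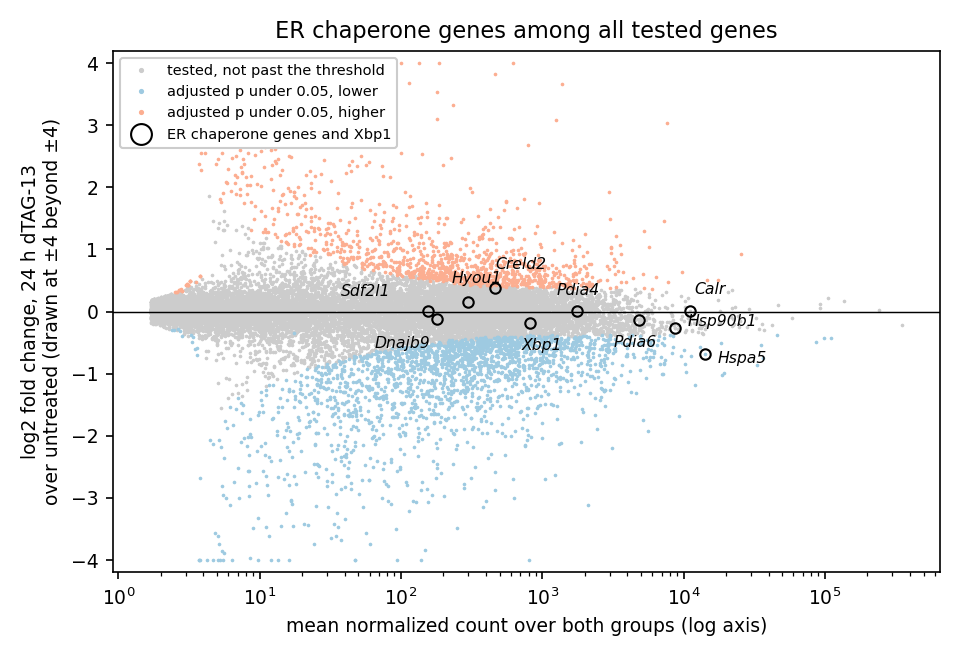
Mean normalised read count over both groups (log axis) against log2 fold change (24 h dTAG-13 over untreated) of the 16773 tested genes. Blue and orange dots passed as lower and higher, grey dots did not pass, and open circles are the ER chaperone genes and Xbp1. Of the circles, Hspa5 at a mean count of 14146 lies among the lower genes, and the other 9 lie in the grey band or at its edge, from −0.27 to 0.38.

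Positions of the 10 genes are given as the GENCODE M21 annotation of GRCm38 places them. Hspa5 spans chr2:34771970-34777547, Pdia4 chr6:47796141-47813430, Calr chr8:84841850-84846934, Hyou1 chr9:44379490-44392369 and Hsp90b1 chr10:86690209-86705509. Xbp1 spans chr11:5520659-5525893, Pdia6 chr12:17266545-17284770, Dnajb9 chr12:44205559-44210326, Creld2 chr15:88819646-88826683 and Sdf2l1 chr16:17130138-17132383. Of these, 5 have another gene that starts within 1000 bases on the opposite strand. Creld2 starts 328 bases from Alg12, a mannosyltransferase of glycan assembly in the ER, and the ERSE printed above lies in the promoter of both. Alg12 was at −0.13 ± 0.25 (adjusted p = 0.745; mean count 87.0), beside 0.38 ± 0.18 for Creld2. Ttc41 beside Hsp90b1 (mean count 2.88; −0.12 ± 0.44) and 9430081H08Rik beside Hyou1 (mean count 10.3; −0.11 ± 0.39) were barely counted. Mir5627 beside Dnajb9 and 1700122E12Rik beside Calr were listed at 0.

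An exact ERSE lay in the promoter windows of 37 genes in all, of which 16 had an adjusted p-value. Of these 16, 2 fell, 1 rose and 13 did not pass, with a median of −0.14. Over all tested genes 12.5% were lower and 7.45% higher, and the calls among these 16 were near those shares. The 5 chaperone genes among them had 1 lower and 0 higher. The other 11 had 1 lower, Hnrnpa3 (−0.52 ± 0.18, adjusted p = 0.0145), which packages nuclear RNA, and 1 higher, Pan2 (0.60 ± 0.22, adjusted p = 0.0137), which trims poly(A) tails. Genes of this set that act in the ER with the chaperones did not pass. They were Canx at −0.19 ± 0.15, Dnajc3 at −0.15 ± 0.16, Syvn1 at 0.26 ± 0.17 and the oxidase gene Ero1lb at −0.04 ± 0.32. Alg12, given above, did not pass either.

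Of 12 tested sensors and transducers of the UPR, 1 fell, 3 rose and 8 did not pass. For this list and those that follow, the shares over all tested genes were 12.5% lower and 7.45% higher. Creb3l1 (OASIS), an ER membrane transcription factor that drives collagen genes, fell by 1.74 ± 0.17 on the log2 scale (adjusted p = 5.0e-24). Atf6b, the ATF6 paralogue (0.59 ± 0.16, adjusted p = 0.00134), Creb3l2, a factor of secretory capacity (0.60 ± 0.19, adjusted p = 0.0047), and Eif2ak3, which encodes PERK (0.63 ± 0.30, adjusted p = 0.0476), rose, and Eif2ak3 lost its call when all genes with a p-value were adjusted together and with p from the shrunken fold change over its standard error. Ern1, which encodes IRE1, and Atf6 were both at −0.17 (SE 0.25 and 0.18; adjusted p = 0.649 and 0.542). The proteases that cut ATF6, Mbtps1 (0.22 ± 0.15) and Mbtps2 (−0.31 ± 0.22), the ligase that joins the spliced Xbp1 mRNA, Rtcb (−0.22 ± 0.18), the NF-Y subunits Nfyb (−0.12 ± 0.15) and Nfyc (−0.21 ± 0.19), and Creb3 (0.15 ± 0.16) did not pass, and Nfya was too low to be tested.

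Most other folding genes of the ER stood, like the 9 genes beside Hspa5, without a call. Of 16 further BiP cochaperones and ER chaperones, 1 fell, Cnpy2 (−0.40 ± 0.15, adjusted p = 0.0252), whose call was lost on either other zero point and with p from the shrunken fold change, and 1 rose, Sdf2 (0.50 ± 0.17, adjusted p = 0.0106), the paralogue of Sdf2l1. Of 19 disulfide isomerases and oxidases related to Pdia4 and Pdia6, 2 fell and 0 rose, or 1 lower and 3 higher on the housekeeping zero point. They were Ero1l, which supplies these enzymes with oxidising power (−0.76 ± 0.19, adjusted p = 0.000243), and Creld1, the paralogue of Creld2 (−0.71 ± 0.29, adjusted p = 0.0208; not called on the housekeeping zero point). In the lectin cycle that Calr belongs to, 0 of 10 genes passed by DESeq2, with 2 at an unadjusted p under 0.05, and 1 was higher on the housekeeping zero point. Of 12 oligosaccharyltransferase genes 1 fell, Krtcap2 (−0.64 ± 0.18, adjusted p = 0.0013), and 2 others were higher on the housekeeping zero point. Of 24 genes of translocation into the ER, 1 fell and 2 rose, or 0 lower and 4 higher on the housekeeping zero point. The lower one, Ssr1 (−0.40 ± 0.16, adjusted p = 0.0396), a subunit of the translocon-associated complex, lost its call in 4 of the 5 alternatives. The higher ones on the deposited scale were Srp14 (0.47 ± 0.15, adjusted p = 0.00787 by DESeq2) and Sec11c (0.58 ± 0.20, adjusted p = 0.0102). Of 8 ER prolyl isomerases, Fkbp11 alone passed, at −2.09 ± 0.22 (adjusted p = 4.1e-21), against −0.69 for Hspa5. Ppib had a mean count of only 10.0 and a standard error of 0.41, so its lack of a call says little.

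The genes that take folded or failed clients from the chaperones showed calls on both sides. In ER-associated degradation, 2 of 25 tested genes fell and 5 rose. The falls were Herpud1, a scaffold of the degradation complex and a UPR target (−0.61 ± 0.18, adjusted p = 0.00192), and H13, a signal peptide peptidase (−0.61 ± 0.17, adjusted p = 0.00107). The rises included Os9, which reads trimmed glycans (0.83 ± 0.17, adjusted p = 3.4e-06), Fam8a1 (0.74 ± 0.17, adjusted p = 6.8e-05), and Edem3, a mannosidase (0.85 ± 0.23, adjusted p = 0.000547). Of 14 tested genes of collagen folding and export, the collagen chaperone Serpinh1 (−0.73 ± 0.17, adjusted p = 6.9e-05) and the prolyl hydroxylase P3h3 (−1.05 ± 0.21, adjusted p = 1.9e-06) fell and Plod2 rose (0.67 ± 0.18, adjusted p = 0.000792), with 3 higher on the housekeeping zero point. Of 21 genes of the KDEL receptors, which return BiP and its neighbours to the ER, and of COPII export, 1 fell and 2 rose. The rises were Sec23a (0.62 ± 0.15, adjusted p = 0.000203 by DESeq2) and Sec24c (0.46 ± 0.15, adjusted p = 0.00945). The fall, Sec24b (−0.42 ± 0.17, adjusted p = 0.0455), a coat subunit, lost its call in 4 of the 5 alternatives. The receptors Kdelr1, Kdelr2 and Kdelr3 were at −0.07, −0.02 and 0.09. Of 13 genes of ER calcium, which BiP and calreticulin buffer, 5 fell and 0 rose (median −0.38), and 4 were lower and 1 higher on the housekeeping zero point. The lowest were Itpr3, a calcium release channel (−0.87 ± 0.22, adjusted p = 0.000252), Rcn1 (−0.70 ± 0.15, adjusted p = 1.5e-05) and Rcn2 (−0.58 ± 0.17, adjusted p = 0.00174).

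Of 18 secreted matrix proteins that pass through the ER of fibroblasts, 6 fell and 5 rose, and on the housekeeping zero point 1 was lower and 6 higher. Timp1 (−0.71 ± 0.17, adjusted p = 0.00013) was lower on both scales, and Fn1 (0.93 ± 0.16, adjusted p = 2.6e-08) was the largest rise of the list.

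Set beside the 10 genes, the PERK and ATF4 arm had 11 lower and 0 higher of 15, with a median of −1.03. Among all tested genes 12.5% were lower and 7.45% higher. The list, like the others, was chosen with earlier results of these data known. That arm and the ER chaperones come from the same comparison and share all libraries. The HSP70, HSP90 and HSP110 relatives of Hspa5, Hsp90b1 and Hyou1 in the cytosol, nucleus and mitochondria had 9 lower and 1 higher of 14 (median −0.49), or 5 lower and 1 higher on the housekeeping zero point. Hspa9, the mitochondrial HSP70, was at −1.07 ± 0.16 (adjusted p = 6.5e-10), Hsp90aa1 at −0.73 ± 0.15 (adjusted p = 9.3e-06) and Hsp90ab1 at −0.54 ± 0.16 (adjusted p = 0.00307), against −0.69 ± 0.15 for Hspa5 and −0.27 ± 0.16 for Hsp90b1. Hspa14 (−0.59), Hspa4 (−0.49), Hsph1 (−0.43) and Hspa8 (−0.39) also fell, of which the last 3 were no longer called on the housekeeping zero point. Hspa1b (−1.23) and Hspa1a (−0.67; not called on the housekeeping zero point) fell, but the near-identical sequences of this pair leave the split of reads between them uncertain. Hspa2 was the 1 that rose (0.59 ± 0.24, adjusted p = 0.0262; not called with p from the shrunken fold change), and Hspa4l, Hspa12a, Trap1 and Hspa12b, at −0.48 to −0.14, did not pass.

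**Figure D4:**
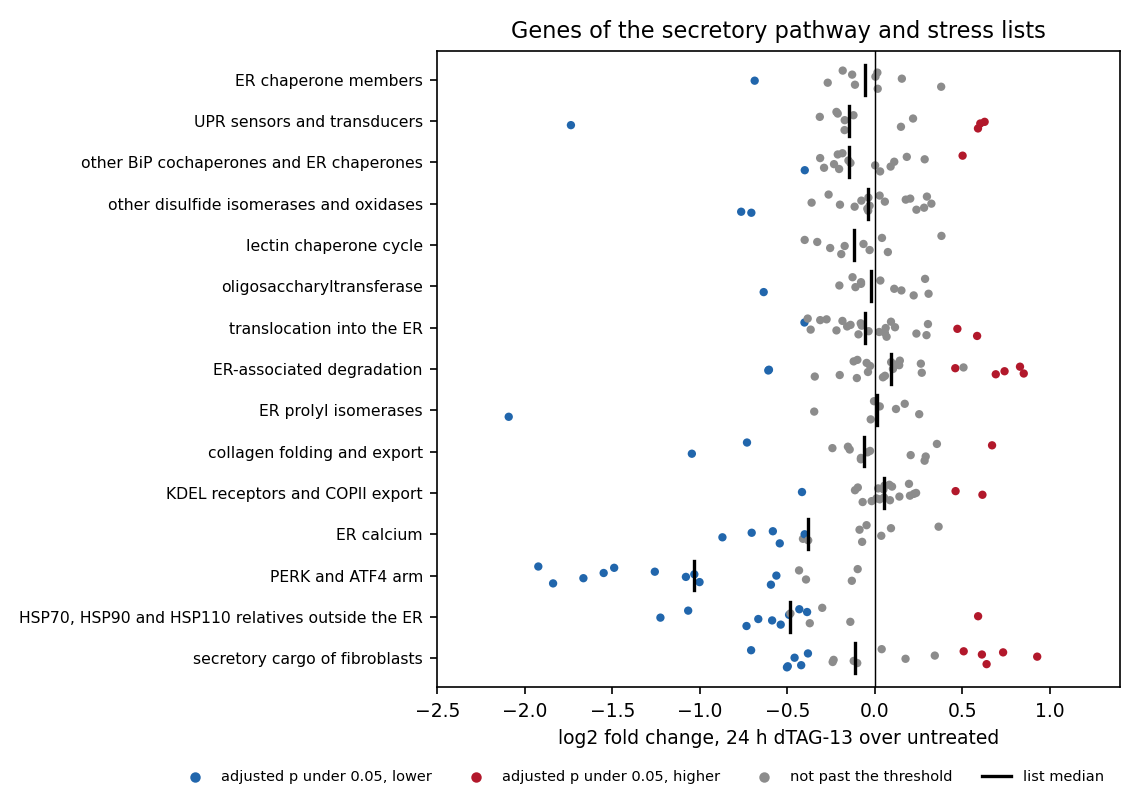
Log2 fold change (24 h dTAG-13 over untreated) of every tested gene of 15 lists, 1 row per list. Blue and red points passed the threshold as lower and higher, grey points did not, and black bars are list medians. Among all tested genes 12.5% were lower and 7.45% higher, and the lists were chosen with earlier results of these data known. The ER chaperone genes and Xbp1 (top row) centre on −0.05 with Hspa5 apart on the left, while the PERK and ATF4 arm centres on −1.03 with 11 of 15 lower, and the cytosolic and mitochondrial relatives on −0.49, where 9 lower calls became 5 on the housekeeping zero point.

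The cells carried fibroblast RNA, with mean counts from 66.5 for Pdgfra to 109792 for Col1a2. Of these 10 markers 5 were lower and 1 higher. Markers of other cells were low apart from Acta1, with mean counts that summed to 75.5 for leukocytes (Ptprc at 0.362, Adgre1 at 0), 22.9 for endothelium (Cdh5 at 0), 7.46 for epithelium (Epcam at 0) and 174 for muscle, of which Acta1 made up 168 (Myod1 at 0), more than Pdgfra and than Sdf2l1 (156). Among them Tek was higher (1.93 ± 0.65, adjusted p = 0.00211; mean count 17.5) and Cd14 lower (−1.30 ± 0.44, adjusted p = 0.00269; mean count 39.4) in dTAG-13 cells, and their part in the chaperone values was not tested. In weakly expressed genes, the mean counts were built from 5 distinct values of 1 read, the highest 2.60 times the lowest, where the labels list 6 libraries. Depth per library is unknown from these files.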

How the data were processed

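Libraries of iMEF were made with ERCC spike-ins. Per the methods, the authors used Trim Galore, STAR on mm10, featureCounts, scaling to the spike-ins and DESeq2 with apeglm shrinkage, with versions not given in the sources used here. Labels and methods disagree on the kit (stranded total RNA against 3′ mRNA), so strand and the captured part of transcripts are uncertain. The time of 24 h came from sample titles; the treatment protocol lists shorter times.

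The deposited signal is a mean normalised count over both groups. The deposited log2 fold change is of dTAG-13 over untreated cells after shrinkage, and its standard error belongs to it. The deposited p-value is 2-sided, with a Benjamini-Hochberg adjustment by the authors after a filter on low counts (lowest mean kept, 1.69). Tests and fold changes are thus the authors' own, because the table used here has no values per library. Libraries were not stated to be separate cultures, so the p-values may measure technical spread only.

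A gene was called when its adjusted p was under 0.05. Intervals of 95% are normal intervals from the fold change and its standard error. The 10 genes and 20 other gene lists were chosen with earlier results of these data known. In other lists, up to 3 called genes of smallest p in the direction of the median and 2 against it were named. Fewer were named for the matrix proteins, and none for the PERK and ATF4 arm or as calls among the fibroblast markers. All sensors, HSP relatives and neighbours were named. Canx, Dnajc3, Syvn1, Ero1lb, Hnrnpa3, Pan2 and the KDEL receptors were named after their values were seen. Promoters were matched by symbol, with older symbols for ERSE genes. Alternatives were 2 other zero points, 2 other filters before adjustment, and p from the shrunken fold change over its standard error. Moving the zero point was tried on simulated data without shrinkage. The deposited fold changes are shrunken, so that trial cannot vouch for calls near the threshold, such as that on Creld2. Python 3.11.15, numpy 2.4.6, pandas 2.3.3, scipy 1.17.1 and matplotlib 3.10.9 were used.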

Additional observations from a re-analysis of the deposited data

How the results depend on the processing

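Hspa5 was lower under all 5 alternatives, with log2 fold changes of −0.69 to −0.53 (adjusted p = 1.7e-05 to 0.00166). No member was called higher on the deposited scale, and 1, Creld2, was called higher on each of the 2 other zero points (0.43 and 0.53); its adjusted p ran from 0.00964 to 0.166 over the 5 alternatives. On the housekeeping zero point Pdia6 and Dnajb9 changed sign, to 0.026 and 0.042, without a call. Calls of single list genes, such as Cnpy2, Hspa8 and Ssr1, also depended on the setting; the cause was not tested. Over all genes, 3343 passed as deposited and 2313 with p from the shrunken fold change over its standard error, and 2996 and 2465 with the adjustment over all genes with a p-value or over those with a mean count of at least 100. Leaving out libraries and another normalisation could not be run, because the table has no values per library. No paired analysis was possible because replicate numbers are in the sample titles but no column carries them. Depth per library is unknown, so its limit on small changes could not be given beyond the standard errors of 0.15 to 0.23.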
